A study of Mus musculus with 36 samples.

Results

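The 7 genes described here encode Sox and Runx transcription factors known from cartilage: *Sox9*, *Sox5*, *Sox6*, *Sox4*, *Sox11*, *Runx1* and *Runx2*. They were taken by gene name from the count table, where each had 1 row among 53421 genes, and from the TPM table, where each had 1 row among 52416. All samples were cells of 1 wild-type, conditionally immortalised mouse line of fibroblast-like chondrocytes, and all had been transfected with siRNA, either a non-targeting pool (NT) or a pool against *Ift88* (IFT88siRNA). *Ift88* encodes a subunit of the intraflagellar transport complex that assembles the primary cilium. Cells of each siRNA group were left without IL-1β (0 h) or were given this inflammatory cytokine at 10 ng/ml and collected 1, 2, 4, 8 and 24 h later. No cells without IL-1β were collected at the later times, so that IL-1β and time in culture cannot be told apart in changes from 0 h. The 12 conditions had 3 replicates each, which makes 36 libraries. The labels give the siRNA at 50 nM and the methods state another concentration. The labels mention vehicle for cells without IL-1β, whereas the methods describe medium only. Neither source says whether replicates were separate cultures, so that p-values measure the spread between these libraries, which may be technical.

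Sox proteins bind DNA through an HMG box. Sox9 drives chondrocyte differentiation and, together with Sox5 and Sox6, activates cartilage matrix genes such as *Col2a1* and *Acan*. Sox5 and Sox6 have no activation domain of their own and act as partners of Sox9, while Sox4 and Sox11 are close relatives that act mainly in progenitor cells. Runx proteins bind DNA through a runt domain with the partner Cbfb. Runx2 is required for chondrocyte hypertrophy and bone formation, and Runx1 acts earlier in skeletal progenitors and in blood formation. IL-1β is known to turn articular chondrocytes from making matrix to breaking it down.

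Total counts on genes were between 19337022 and 38304127 per library, a depth whose precision covers counting error only. *Ift88* was lower in the IFT88siRNA libraries at every time point without overlap between the groups, and its log2 difference was between −2.12 at 2 h and −1.47 at 24 h. Of 7 chondrocyte markers, 5 had a median above 1 CPM (read counts scaled to library size with TMM factors). *Acan* and *Matn3* had medians below 1 CPM in both siRNA groups. *Sox9*, itself 1 of the genes described here, is among these 5 markers, at 12.1 to 79.6 CPM over all libraries. The sums of the chondrocyte markers thus include it. The chondrocyte markers summed to between 39.9 and 151 CPM in NT and between 48.2 and 133 CPM in IFT88siRNA, and 7 fibroblast markers to between 2229 and 4896 CPM and between 2356 and 4999 CPM. None of the 5 osteoblast and none of the 5 endothelial markers had a median above 1 CPM. Of 6 macrophage markers 2 did (*Cd68* and *Lyz2*), and of 5 epithelial markers 1 (*Cdh1*). The smooth muscle markers summed to between 296 and 4648 CPM in NT and between 400 and 4621 CPM in IFT88siRNA, and their part in the results below was not tested. Most of these sums was *Acta2*, at 290 to 4612 CPM over all libraries. In NT and IFT88siRNA the medians were 19.0 and 15.7 CPM for *Cnn1*, 1.21 and 0.841 CPM for *Myh11* and 0.271 and 0.265 CPM for *Des*. In such bulk RNA, fewer cells with a transcript and less transcript per cell cannot be told apart.

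To compare levels between genes, TPM values were used, which account for transcript length. Over the 36 libraries the median TPM was 48.6 for *Sox4*, 46.6 for *Runx1*, 20.1 for *Runx2*, 11.6 for *Sox9*, 0.824 for *Sox6*, 0.529 for *Sox5* and 0.0241 for *Sox11*. The order depended on the time point. In NT at 0 h, *Sox4* stood at 55.0 ± 4.06 TPM (SD, n = 3), above *Runx1* at 29.2 ± 1.76, *Runx2* at 17.99 ± 0.795 and *Sox9* at 11.3 ± 0.711. In NT at 4 h, *Runx1* stood at 64.3 ± 3.81 TPM and *Sox4* at 34.3 ± 1.67 (SD, n = 3). *Sox9* reached its highest TPM in NT at 2 h, with 32.6 ± 2.26, and was then above *Runx2* at 17.3 ± 0.731 and close to *Sox4* at 30.9 ± 0.580. The TPM of *Sox6* and *Sox5* at 0 h in NT, 0.813 ± 0.149 and 0.780 ± 0.359, differed by less than the spread between replicates.

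**Figure D1:**
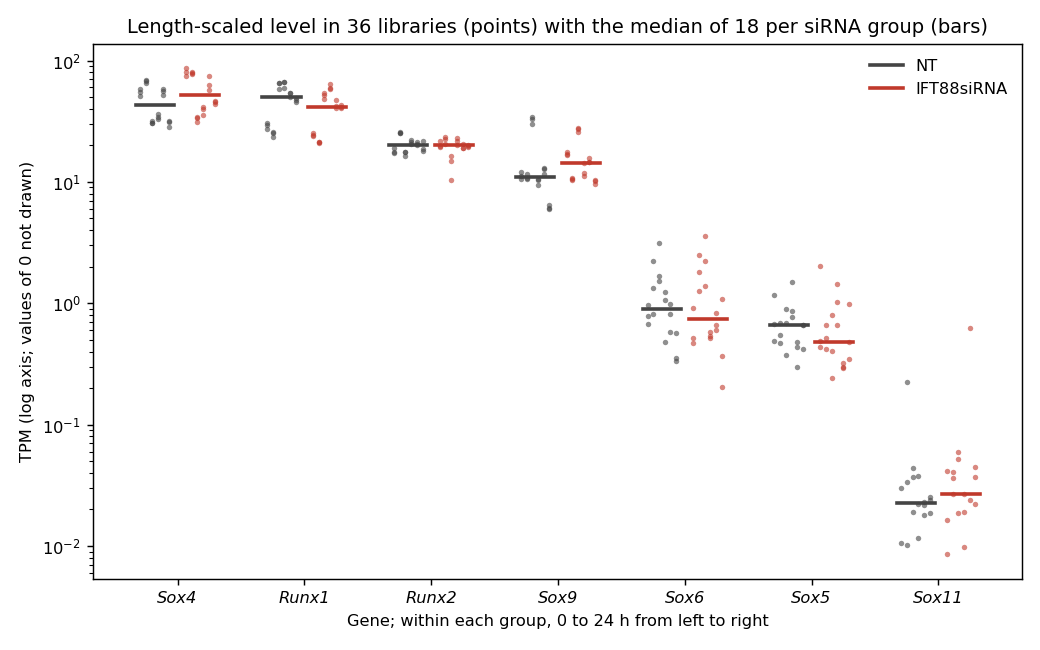
TPM on a log axis for each gene in each library, with time from left to right within the NT and the IFT88siRNA libraries and a bar at the median of 18 libraries. *Sox4* and *Runx1* have the highest medians over all libraries (48.6 and 46.6), those of *Sox6* and *Sox5* are below 1 TPM and *Sox11* lies near 0, with values of 0 not drawn.

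The depth behind these genes differed. *Runx1* had 1027 to 4095 reads per library, *Runx2* 796 to 2003, *Sox4* 677 to 2864 and *Sox9* 327 to 1665. *Sox6* had 19 to 117 reads and *Sox5* 19 to 57. *Sox11*, which has a role in progenitors and developing neurons, had 0 to 8 reads per library and none in 6 of 36 libraries, where a count of 0 allows up to 3 reads. *Sox11* was below the filter on low counts in every comparison and was not tested, so that 6 of the 7 genes were tested throughout and a change in *Sox11* was not detectable at this depth. The median coefficient of variation between replicates was 3.75% for *Runx1*, 3.78% for *Runx2*, 5.15% for *Sox9*, 8.76% for *Sox4*, 11.0% for *Sox6* and 16.5% for *Sox5* in CPM. In TPM it was 36.02% for *Sox6* and 37.6% for *Sox5*, so that differences in these 2 genes rest on the counts.

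A gene was taken as changed (called) with a Benjamini-Hochberg adjusted p-value under 0.05 in edgeR's quasi-likelihood test and a fold change over 1.5. With the 5 time points of IL-1β tested together against 0 h, 5 of the 6 tested genes changed in NT, where 50.0% of all genes tested did, and 5 of 6 in IFT88siRNA, where 48.2% did. *Runx2* was the exception in both groups, with an adjusted p-value under 0.05 but a smaller fold change. In NT, 2, 3, 2, 1 and 4 of the 6 were called at the successive times from 1 to 24 h, against 18.7%, 27.3%, 28.7%, 19.7% and 16.3% of all genes. In IFT88siRNA, 1, 4, 3, 2 and 5 of the 6 were called at these times, against 15.1%, 25.6%, 29.3%, 17.6% and 14.2%. The comparisons within a siRNA group share the 0 h libraries.

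Between the siRNA groups at 0 h, *Sox9* and *Sox4* were called, both higher in IFT88siRNA, which is 2 of 6 against 0.674% of all genes called higher and 2.23% called in either direction. At 24 h the same 2 genes were called higher, against 0.552% called higher and 1.15% in either direction. None of the 6 was called by edgeR at 1, 2, 4 or 8 h, where 2.66%, 0.496%, 0.432% and 0.692% of all genes were. At these times DESeq2 on the counts called 0 as well, against 223 of 14797, 64 of 14728, 34 of 14801 and 87 of 15165 genes. Limma on the TPM also called 0, against 85 of 14538, 14 of 14420, 10 of 14757 and 38 of 14864 genes on log2(TPM + 1). An unadjusted p-value under 0.05 was found in 3, 3, 5 and 4 of the 6, a share that was not counted over all genes. By the adjusted p-value of edgeR alone, 1, 1, 0 and 2 of the 6 passed, against 2808 of 14797, 407 of 14728, 570 of 14801 and 644 of 15165 genes. With the 6 time points together, *Sox9*, *Sox5* and *Sox4* were called, 3 of 6 against 5.19% of all genes.

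Whether the change from 0 h differed between the siRNA groups was tested as an interaction over all 36 libraries. *Sox9* and *Sox4* were called over the 5 time points, 2 of 6 against 1.20% of all genes, and the same 2 genes at 1 h and at 2 h, against 0.598% and 0.245%. At 4, 8 and 24 h edgeR called 0 of 6, against 0.311%, 0.275% and 0.132% of all genes. An unadjusted p-value under 0.05 was found in 6, 4 and 1 of the 6, a share that was not counted over all genes, and 0 had an adjusted p-value under 0.05.

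**Figure D2:**
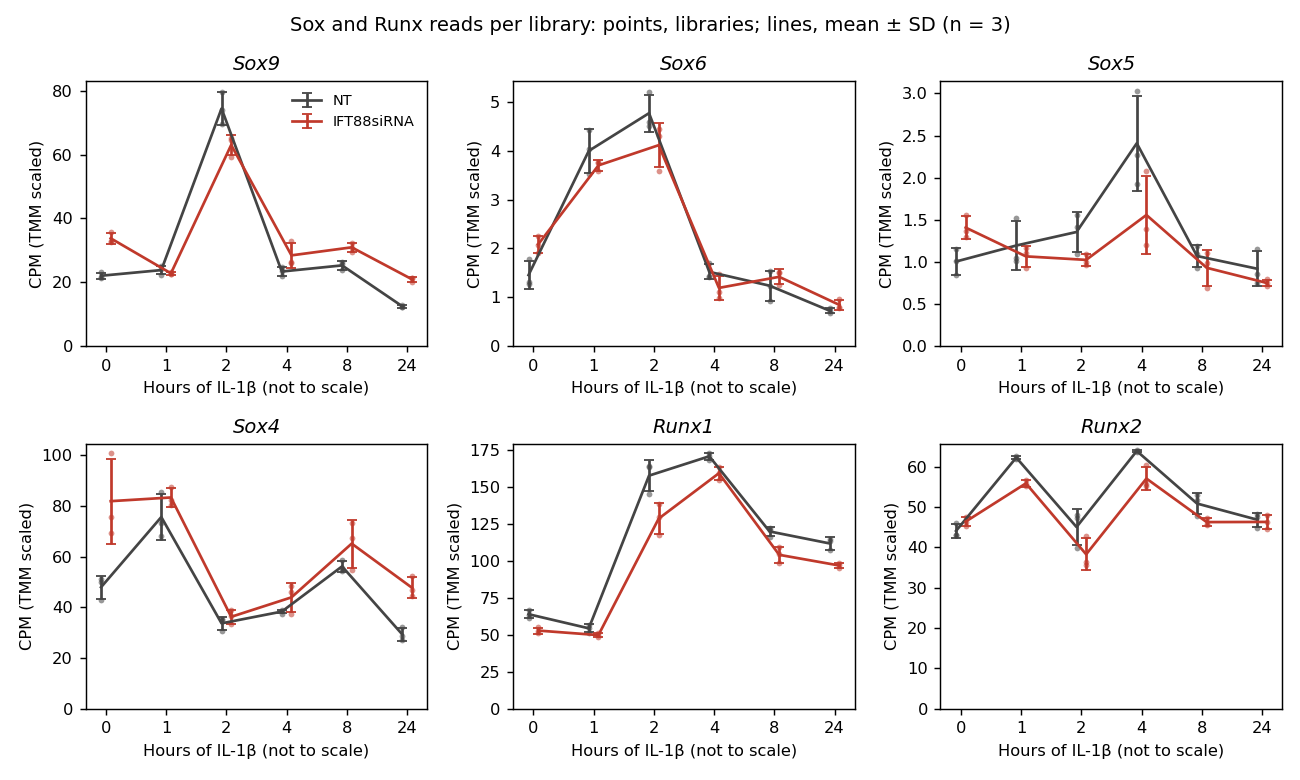
CPM of the 6 tested genes in each library (points), with the mean and SD of 3 libraries, in NT (grey) and IFT88siRNA (red) over time after IL-1β, with evenly spaced time points. *Sox9* and *Sox6* peak at 2 h, *Sox4* is lowest at 2 and 24 h in NT, *Runx1* is high from 2 h on, and *Sox9* and *Sox4* of the IFT88siRNA libraries lie above NT at 0 and 24 h.

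*Sox9* (ENSMUSG00000000567) lies on the plus strand of chromosome 11 from 112782224 to 112787760 (GRCm38) and has 3 exons of 4135 bases in total. In the NT libraries it stood at 23.1, 21.8 and 21.2 CPM at 0 h, and at 24.1, 22.3 and 25.0 CPM at 1 h. At 2 h the values were 79.6, 69.6 and 74.0 CPM, far above every library at 0 and 1 h. By 4 h they were back at 23.6, 24.7 and 21.8 CPM. They stood at 26.3, 25.7 and 23.8 CPM at 8 h and at 12.2, 13.0 and 12.1 CPM at 24 h. The 2 h libraries thus stood alone at the top, and the 24 h values were the lowest, below all those at 0 h. Relative to 0 h, *Sox9* rose at 2 h by 1.75 ± 0.062 on the log2 scale (SE; adjusted p = 1.3e-17), or 3.36-fold, and fell at 24 h by 0.82 ± 0.071 (adjusted p = 7.5e-10). At 8 h the log2 difference was 0.20 ± 0.067 (adjusted p = 0.015), under the fold threshold.

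In the IFT88siRNA libraries *Sox9* started higher, at 32.6, 35.8 and 32.8 CPM at 0 h, above all 3 NT libraries. At 1 h it stood at 22.6, 22.5 and 23.2 CPM, within the range of NT at 1 h. At 2 h it reached 64.5, 59.3 and 65.1 CPM, below all 3 NT libraries. At 4 h the values were 33.05, 25.9 and 26.3 CPM and at 8 h 30.8, 32.4 and 29.6 CPM, above NT at both times. At 24 h it stood at 21.4, 19.97 and 21.4 CPM, again above all 3 NT libraries. The order of the siRNA groups thus turned between 0 and 2 h and turned back by 4 h. Against their own 0 h level, the IFT88siRNA libraries had a log2 difference of −0.57 ± 0.075 at 1 h (adjusted p = 1.1e-06), under the fold threshold. They rose by 0.90 ± 0.070 at 2 h (adjusted p = 8.3e-11) and fell by 0.69 ± 0.074 at 24 h (adjusted p = 3.8e-08).

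Between the siRNA groups, *Sox9* was higher in IFT88siRNA by 0.61 ± 0.061 at 0 h (log2, SE, n = 3 against 3; adjusted p = 1.9e-07), which is 53.1%, and by 0.74 ± 0.067 at 24 h (adjusted p = 6.2e-06), which is 67.2%. At 2 h its difference was −0.24 ± 0.061 (adjusted p = 0.061). At 4 h it was 0.28 ± 0.092 (adjusted p = 0.112), with the first IFT88siRNA library above the other two. At 8 h it was 0.28 ± 0.066 (adjusted p = 0.041), under the fold threshold but with no overlap between the groups. The change from 0 h was lower in IFT88siRNA than in NT by 0.68 ± 0.103 at 1 h (adjusted p = 0.00014) and by 0.85 ± 0.096 at 2 h (adjusted p = 2.2e-06). At 24 h the change from 0 h differed by 0.13 ± 0.11 (adjusted p = 0.87). The call at 0 h lies near the fold threshold, and the log2 difference was 0.55 on log2(TPM + 1) and 0.57 without the second IFT88siRNA library at 0 h, both under it.

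*Sox6* (ENSMUSG00000051910), on the minus strand of chromosome 7 from 115470872 to 116038796, had few reads but changed early. In NT it stood at 1.27, 1.32 and 1.77 CPM at 0 h, at 3.52, 4.43 and 4.04 CPM at 1 h and at 4.59, 4.51 and 5.20 CPM at 2 h. It was thus above its 0 h range at 1 h, when *Sox9* still overlapped with its own. At 24 h it stood at 0.711, 0.781 and 0.677 CPM, below all 0 h libraries. It rose by 1.46 ± 0.17 at 1 h (log2, SE; adjusted p = 1.6e-07) and by 1.71 ± 0.17 at 2 h (adjusted p = 4.3e-09), and fell by 0.999 ± 0.225 at 24 h (adjusted p = 0.00077). In IFT88siRNA it stood at 1.91, 2.08 and 2.26 CPM at 0 h and at 4.30, 4.44 and 3.59 CPM at 2 h, so that in CPM it started above and peaked below the NT libraries. In TPM the groups overlapped at both times and the differences had the opposite sign, −0.16 at 0 h and 0.12 at 2 h on log2(TPM + 1). It rose by 0.83 ± 0.15 at 1 h (adjusted p = 7.5e-05) and by 0.98 ± 0.15 at 2 h (adjusted p = 4.5e-06), and fell by 0.79 ± 0.18 at 4 h (adjusted p = 0.00065) and by 1.28 ± 0.18 at 24 h (adjusted p = 2.8e-06). The siRNA groups differed by 0.52 ± 0.19 at 0 h (adjusted p = 0.053) and the change from 0 h by −0.74 ± 0.22 at 2 h (adjusted p = 0.086), neither of which passed the test, and on the TPM both had the opposite sign to that in the counts. The changes at 1 and 24 h in NT and at 4 and 24 h in IFT88siRNA were not called on the TPM, where they were 0.40, −0.35, −0.071 and −0.10 on log2(TPM + 1).

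*Sox5* (ENSMUSG00000041540), on the minus strand of chromosome 6 from 143828425 to 144781977, is the third gene of the chondrogenic trio. In NT it stood at 1.01, 1.15 and 0.843 CPM at 0 h and at 2.27, 1.93 and 3.03 CPM at 4 h, its highest time point, a rise of 1.25 ± 0.23 (log2, SE; adjusted p = 4.9e-05). At 2 h, when *Sox9* and *Sox6* were highest, its difference from 0 h did not pass the test. In IFT88siRNA it stood at 1.30, 1.37 and 1.55 CPM at 0 h, at 1.21, 2.08 and 1.39 CPM at 4 h and at 0.792, 0.744 and 0.712 CPM at 24 h. The only differences from 0 h that passed there were lower values, by 0.60 ± 0.22 at 8 h (adjusted p = 0.030) and by 0.91 ± 0.22 at 24 h (adjusted p = 0.0021). No single time point was called between the siRNA groups, and the value called with the 6 time points together was that at 4 h, −0.63 ± 0.21 (adjusted p over the joint test = 0.039). The rise at 4 h in NT and the fall at 24 h in IFT88siRNA were not called on the TPM, where they were 0.20 (without a filter on low values) and −0.24 on log2(TPM + 1) and the libraries overlapped with 0 h. The joint call was lost without replicate 1, without replicate 3 and on the TPM. The call at 8 h in IFT88siRNA was lost with DESeq2, on the TPM, without a filter and without each of 3 libraries. *Sox5os1*, an antisense gene with 0 counts in all libraries, overlaps 9.25% of the exonic bases of *Sox5*. Without strand, reads that overlap exons of both genes are assigned to neither.

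**Figure D3:**
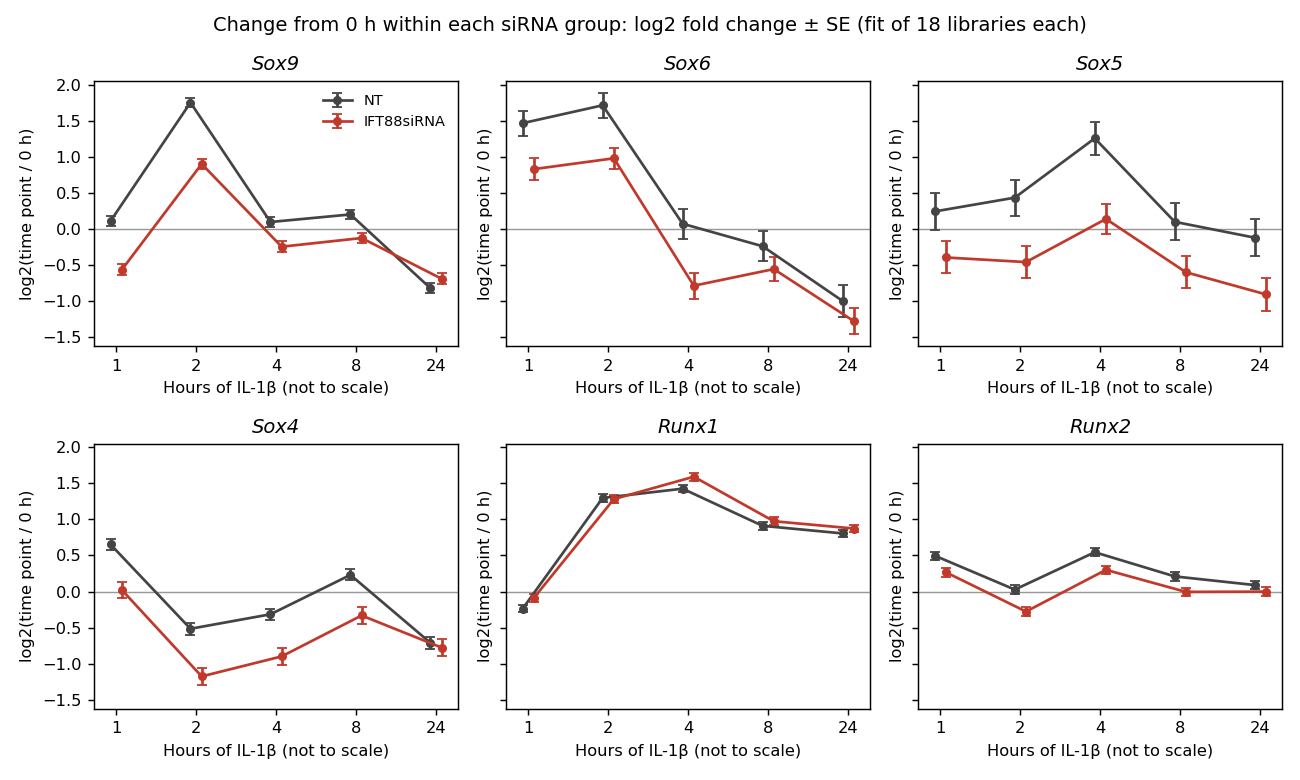
Log2 fold change from 0 h with its SE for the 6 tested genes in NT (grey) and IFT88siRNA (red), each from a fit of 18 libraries. For *Sox9*, *Sox6*, *Sox5*, *Sox4* and *Runx2* the IFT88siRNA values lie below NT at 1, 2, 4 and 8 h, while the *Runx1* curves lie close together.

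*Sox4* (ENSMUSG00000076431) is a gene of 1 exon on the minus strand of chromosome 13, from 28948919 to 28953713. In NT it stood at 49.8, 51.2 and 42.7 CPM at 0 h, at 85.4, 73.3 and 68.0 CPM at 1 h and at 35.3, 35.0 and 30.7 CPM at 2 h. It was thus highest at the time point before the *Sox9* peak and below its 0 h range at the peak itself. It stood at 58.7, 55.3 and 54.4 CPM at 8 h and at 32.2, 28.8 and 27.0 CPM at 24 h. Relative to 0 h it rose by 0.65 ± 0.076 at 1 h (log2, SE; adjusted p = 1.1e-07) and fell by 0.71 ± 0.079 at 24 h (adjusted p = 6.5e-08). At 2 h its log2 difference was −0.52 ± 0.081 (adjusted p = 5.7e-06), under the fold threshold, whereas on log2(TPM + 1) it was −0.81, past it. That difference at 1 h was under the fold threshold with upper-quartile scaling (0.57), on log2(TPM + 1) (0.30) and without either the third library at 0 h (0.58) or the first at 1 h (0.56).

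In IFT88siRNA, *Sox4* stood at 69.2, 100.8 and 75.5 CPM at 0 h, all above NT, with the second library apart from the others. At 1 h it stood at 80.2, 87.2 and 82.4 CPM, in a range that overlapped with NT. At 2 h it stood at 39.0, 36.4 and 33.4 CPM and at 24 h at 44.3, 46.7 and 52.2 CPM, the latter all above NT. From its own 0 h level it had a difference of 0.024 ± 0.11 at 1 h (adjusted p = 0.88), and it fell by 1.18 ± 0.12 at 2 h (adjusted p = 5.9e-09), by 0.90 ± 0.12 at 4 h (adjusted p = 3.1e-07) and by 0.78 ± 0.11 at 24 h (adjusted p = 4.1e-06). Between the siRNA groups it was higher in IFT88siRNA by 0.77 ± 0.092 at 0 h (adjusted p = 2.9e-06), which is 70.5%, and by 0.70 ± 0.071 at 24 h (adjusted p = 1.9e-05), which is 62.5%. From 1 to 8 h the differences were between 0.10 and 0.20 and did not pass. The change from 0 h was lower in IFT88siRNA by 0.63 ± 0.149 at 1 h (adjusted p = 0.015) and by 0.66 ± 0.16 at 2 h (adjusted p = 0.026).

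Limits apply to *Sox4*. On log2(TPM + 1) its difference between the siRNA groups was 0.54 at 0 h and 0.55 at 24 h, both under the fold threshold, and its different response was lost on the TPM and without replicate 2. Of its exonic bases, 2616 (54.6%) overlap with exons of *Gm26735*, a lincRNA gene on the opposite strand, which had 0 counts in all 36 libraries. featureCounts at its default setting does not use strand and assigns no read that overlaps exons of both genes.

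**Figure D4:**
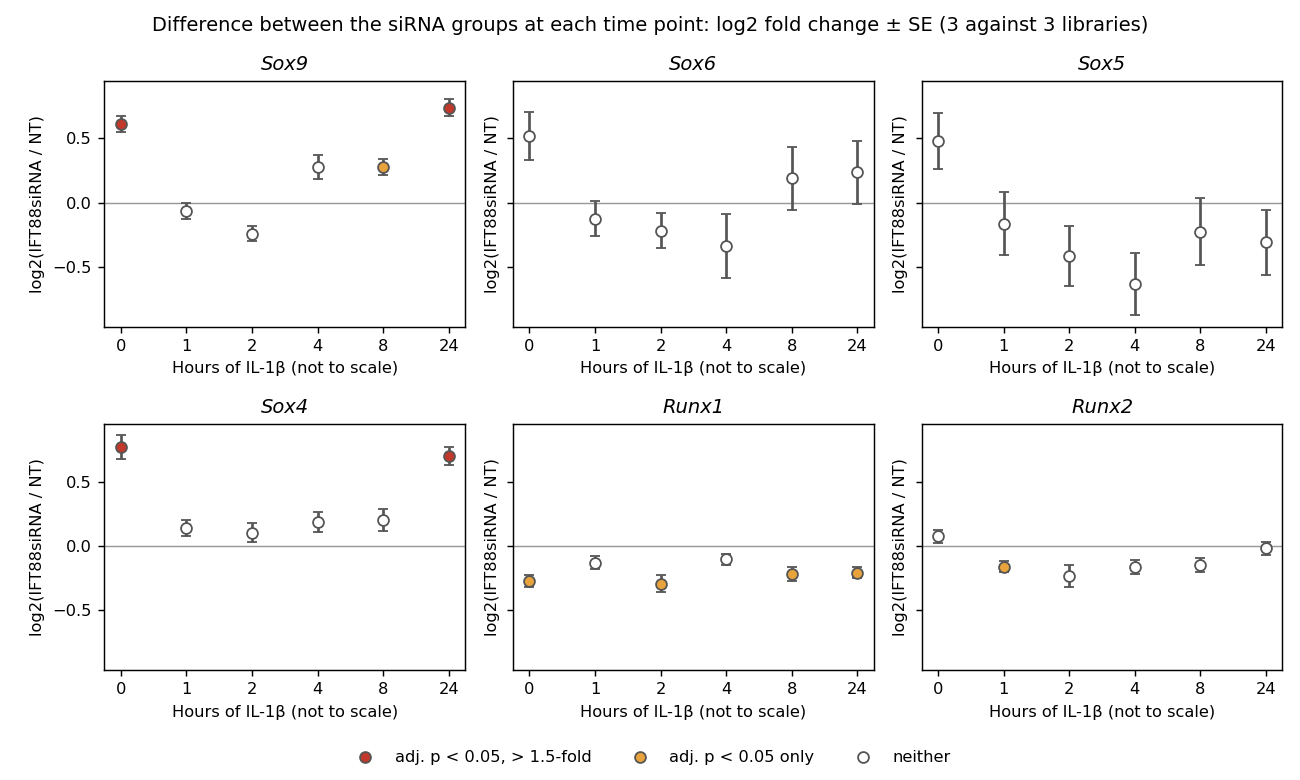
Log2 difference between IFT88siRNA and NT with its SE at each time point, from 3 libraries against 3. Red points passed both thresholds (*Sox9* and *Sox4* at 0 and 24 h), orange points only the adjusted p-value (*Runx1* at 4 time points, *Sox9* at 8 h, *Runx2* at 1 h), and all 6 *Runx1* values are below 0.

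*Runx1* (ENSMUSG00000022952) lies on the minus strand of chromosome 16 from 92601466 to 92826149 and *Runx2* (ENSMUSG00000039153) on the minus strand of chromosome 17 from 44495987 to 44814797. Promoter sequences from RefSeq (GRCm38.p6), each 250 bases before to 50 after a start, were found for 6 of the 7 genes, 12 in all, and searched on both strands for the letters TGTGGT of a Runx motif, AACAAT of a Sox motif, TGANTCA of an AP-1 motif, TGACGTCA of a CRE and an NF-κB motif. Those of the Runx genes are shown because matches to the Runx motif, that of their own family, were found in both genes. The Runx motif was also found in 2 promoters of *Sox6*. *Runx1* was called after IL-1β, whereas *Runx2* was not. The promoters of the Runx genes are printed 5′ to 3′ on the strand of the gene, with matches to the Runx motif in capitals (ACCACA is its reverse complement).
Runx1 upstream promoter, chr16:92826025-92826324 (minus strand): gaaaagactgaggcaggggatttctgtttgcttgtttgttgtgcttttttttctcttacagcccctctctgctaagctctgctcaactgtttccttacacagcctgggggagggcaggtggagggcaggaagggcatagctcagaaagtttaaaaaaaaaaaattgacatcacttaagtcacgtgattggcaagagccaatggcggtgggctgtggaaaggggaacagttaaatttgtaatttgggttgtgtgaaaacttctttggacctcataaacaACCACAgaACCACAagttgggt
Runx1 downstream promoter, chr16:92697280-92697579 (minus strand): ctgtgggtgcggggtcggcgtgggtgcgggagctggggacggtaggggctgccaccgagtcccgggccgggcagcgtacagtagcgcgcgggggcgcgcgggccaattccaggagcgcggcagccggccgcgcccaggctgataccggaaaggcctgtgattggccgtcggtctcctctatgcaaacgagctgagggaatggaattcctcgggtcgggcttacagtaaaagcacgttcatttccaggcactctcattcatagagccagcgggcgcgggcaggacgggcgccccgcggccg
Runx2 promoter, chr17:44814578-44814877 (minus strand): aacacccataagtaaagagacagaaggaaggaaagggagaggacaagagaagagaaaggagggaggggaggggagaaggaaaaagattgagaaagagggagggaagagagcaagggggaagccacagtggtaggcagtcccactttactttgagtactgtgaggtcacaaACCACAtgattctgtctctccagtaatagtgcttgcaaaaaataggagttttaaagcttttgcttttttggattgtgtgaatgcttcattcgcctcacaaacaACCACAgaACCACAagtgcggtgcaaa
The upstream *Runx1* promoter holds 2 matches, which begin at bases 279 and 287, and the *Runx2* promoter holds 3, at bases 171, 274 and 282. In both genes the last pair lies 8 bases apart and after the start. The downstream *Runx1* promoter holds none and differs in composition, with 69% GC and 35 CpG, against 45% GC and 2 CpG upstream and medians of 52.7% and 7 over all promoters. Of the 32851 promoters in the table, 16.8% hold the Runx motif, and 10.7%, 7.81%, 1.79% and 1.63% hold the Sox, AP-1, CRE and NF-κB letters. None of the latter 3 was found in the 12 promoters of these genes, which says only that these letters are not in these windows. Among the other members, 2 of the 6 *Sox6* promoters also hold the Runx motif, once each, and 1 of these holds the Sox letters, at bases 15 and 26. The gene counts do not tell the promoters of a gene apart.

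*Runx1* was higher from 2 h of IL-1β on than at 0 h. In NT it stood at 67.2, 63.4 and 61.4 CPM at 0 h and at 54.8, 51.6 and 56.9 CPM at 1 h, lower than at 0 h without overlap. It then stood at 163.6, 145.5 and 164.1 CPM at 2 h and at 168.4, 172.9 and 171.2 CPM at 4 h. At 8 h it stood at 121.0, 122.5 and 116.4 CPM and at 24 h at 115.0, 113.5 and 107.1 CPM, so that all libraries from 2 h on were above those at 0 h. Relative to 0 h it rose by 1.30 ± 0.051, 1.43 ± 0.051, 0.91 ± 0.051 and 0.81 ± 0.051 (log2, SE) at 2, 4, 8 and 24 h, with adjusted p-values between 8.17e-18 at 4 h and 1.93e-12 at 24 h. In IFT88siRNA it stood at 55.1, 51.2 and 52.4 CPM at 0 h, at 154.8, 159.6 and 163.6 CPM at 4 h and at 95.3, 98.3 and 97.1 CPM at 24 h. There it rose by 1.28 ± 0.055, 1.59 ± 0.055, 0.97 ± 0.055 and 0.87 ± 0.055 at the same time points.

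At each of the 6 time points the 3 IFT88siRNA libraries had less *Runx1* in CPM than the 3 NT libraries, and in TPM the groups overlapped at 4 h. At 0, 2, 8 and 24 h the log2 differences were −0.28 ± 0.048, −0.30 ± 0.066, −0.22 ± 0.051 and −0.21 ± 0.045 (SE), with adjusted p-values of 0.000304, 0.0366, 0.0367 and 0.00801. At 1 and 4 h they were −0.13 ± 0.050 and −0.11 ± 0.045, with adjusted p-values of 0.0736 and 0.226. None reached the fold threshold. The change from 0 h did not pass the test of a difference between the siRNA groups (adjusted p = 0.381 with the 5 time points together), and the largest of its 5 differences was 0.17 ± 0.075, at 4 h.

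*Runx2* had the smallest range. Its NT libraries stood at 43.1, 43.1 and 46.0 CPM at 0 h, at 62.2, 62.7 and 61.8 CPM at 1 h, at 47.2, 39.9 and 48.0 CPM at 2 h and at 63.8, 64.2 and 63.6 CPM at 4 h. The 1 and 4 h libraries were thus above all those at 0 and 2 h. The log2 difference from 0 h was 0.50 ± 0.058 at 1 h (adjusted p = 1.3e-07) and 0.54 ± 0.058 at 4 h (adjusted p = 1.4e-08), both under the fold threshold, and at 2 and 24 h it did not pass. In IFT88siRNA the libraries stood at 56.7, 55.7 and 55.2 CPM at 1 h and at 55.1, 55.6 and 60.5 CPM at 4 h, each time below all NT libraries. The difference between the siRNA groups passed the test at 1 h, at −0.16 ± 0.043 (adjusted p = 0.015), and not at 4 h, at −0.17 ± 0.054 (adjusted p = 0.096), where it was 0.024 on log2(TPM + 1). *Runx2os1*, an antisense gene, overlaps 5.87% of the exonic bases of *Runx2* and had 8 to 41 reads per library. Without strand, reads that overlap exons of both genes are assigned to neither, so that such reads are missing from the *Runx2* counts.

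The highest mean of the 12 conditions was 6.59 times the lowest for *Sox6*, 5.97 times for *Sox9*, 3.43 times for *Runx1*, 3.21 times for *Sox5*, 2.84 times for *Sox4* and 1.67 times for *Runx2*. Over the 12 condition means of log2 CPM, Pearson's r was 0.70 between *Sox9* and *Sox6*, −0.78 between *Sox4* and *Runx1* and between −0.42 and 0.58 for the other pairs, as a description of points that share the time course. Among 11889 protein-coding genes with a mean of at least 1 CPM, those most like *Sox9* over these means were *Smad6* (r = 0.96), which encodes an inhibitor of BMP signalling, *Numbl* (0.91) and *Nuak1* (0.91), a kinase gene. Those most like *Sox6* were *Swap70*, *Tanc1* and the transcription factor gene *Ebf1* (each 0.98). Those most like *Sox5* were *Chst2*, *Etl4* and *Acacb* (0.90, 0.90 and 0.89), and those most like *Sox4* were the DNA repair gene *Xpa* (0.97), *Mat2b* (0.93) and *Nckap5l* (0.93). *Runx1* was most like *Baz1a*, the receptor gene *Il4ra* and *Zbtb38* (each 0.98). *Runx2* was most like *Tet2*, which encodes a DNA demethylating enzyme (0.92), *Pikfyve* (0.91) and *Pla2g4c* (0.90).

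Other genes of these families were few. Of 14 other Sox genes only *Sox12*, a relative of *Sox4*, passed the filter on low counts. *Sox12* fell in NT by 0.66 ± 0.066 at 2 h (log2, SE; adjusted p = 4.1e-09) and by 0.95 ± 0.069 at 4 h (adjusted p = 1.0e-11) and was called at no time point between the siRNA groups. Of 5 genes of the Runx family and its partners, 4 were tested and 0 were called by edgeR between the siRNA groups at any time point. Of all genes, 2.23%, 2.66%, 0.496%, 0.432%, 0.692% and 1.15% were called at the successive times, so that 0 of 4 is near these shares. With IL-1β, *Runx1t1*, a corepressor gene, rose in NT at 1 h by 0.60 ± 0.049 (adjusted p = 2.7e-10), and *Cbfa2t2*, its relative, fell in IFT88siRNA at 2 h by 0.61 ± 0.051 (adjusted p = 3.2e-10).

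Cartilage genes that Sox9 activates with Sox5 and Sox6 did not move as 1 group with IL-1β. Of 16 genes listed, 10 were tested in NT and 8 were called over the 5 time points, against 50.0% of all genes. The collagen genes *Col2a1* and *Col9a3* fell at 1 h by 1.30 ± 0.091 (adjusted p = 1.6e-11) and 1.34 ± 0.13 (adjusted p = 7.6e-09), when *Comp*, a gene of a matrix glycoprotein, rose by 1.23 ± 0.074 (adjusted p = 8.3e-13). At 2 h, the time of the *Sox9* peak in NT, 2 genes were called higher and 3 lower (5 of 10, against 27.3% of all genes), and the median of the 10 was 0.27 beside −0.010 over all genes tested. At 24 h, when *Sox9* and *Sox6* were lower, 1 was called higher and 6 lower (7 of 10, against 16.3% of all genes) with a median of −0.93 beside −0.019, and *Col11a1* fell by 1.76 ± 0.063 (adjusted p = 2.5e-17).

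For the effect of the siRNA at 0 h, 9 of the 16 were tested, of which 1 was called higher and 2 lower in IFT88siRNA, against 2.23% of all genes called in either direction. *Col2a1* stood at 11.7 ± 0.665 CPM in IFT88siRNA and 19.8 ± 1.92 CPM in NT (SD, n = 3), a log2 difference of −0.76 ± 0.079 (SE; adjusted p = 3.5e-07), in the same libraries in which *Sox9* was higher. *Col11a2* was also lower, by 0.74 ± 0.12 (adjusted p = 7.65e-05), and *Comp* was higher, by 0.60 ± 0.077 (adjusted p = 6.75e-06). *Col2a1* was lower at 1, 2 and 4 h as well, by 0.68 ± 0.14, 0.62 ± 0.14 and 0.59 ± 0.12 (adjusted p = 0.00262, 0.0397 and 0.0105). At 24 h *Comp* was higher by 0.87 ± 0.098 (adjusted p = 4.6e-05) and was the only one of 8 tested that was called, against 1.15% of all genes. *Acan*, which encodes aggrecan, had 1 to 16 reads per library and its joint call over the 6 time points (adjusted p = 0.00014) rests on these few reads. No gene of this list was called by edgeR for a different response to IL-1β, of 12 tested, against 1.20% of all genes.

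Of 13 hypertrophy and bone genes that Runx2 activates, 8 were tested in NT and 8 were called over time, against 50.0% of all genes. The collagenase gene *Mmp13* had 0.564 ± 0.181 CPM in NT at 0 h and 23.6 ± 1.89 CPM after 8 h (SD, n = 3), a rise of 5.37 ± 0.17 on the log2 scale (SE; adjusted p = 3.2e-18). *Vegfa*, an angiogenic factor gene, rose by 3.06 ± 0.063 at 2 h (adjusted p = 3.4e-22). *Col10a1*, the collagen gene that marks hypertrophy, fell by 2.05 ± 0.068 at 24 h (adjusted p = 5.6e-18), and *Phex* fell by 2.16 ± 0.37 (adjusted p = 3.5e-05). *Dmp1* had 35 to 48 reads per NT library at 0 h and 0 or 1 at 24 h. Between the siRNA groups *Col10a1* was lower in IFT88siRNA at 1, 2 and 4 h, by 1.02 ± 0.091, 0.80 ± 0.071 and 0.77 ± 0.078 (adjusted p = 2.1e-06, 0.00024 and 2.8e-05). *Mmp13* was lower at 4, 8 and 24 h, by 0.85 ± 0.099, 1.68 ± 0.13 and 1.75 ± 0.15 (adjusted p = 0.00012, 7.3e-05 and 3.3e-06). *Alpl*, the phosphatase gene of mineralising cells, was higher at 8 h by 0.88 ± 0.22 (adjusted p = 0.0498), and *Dmp1* was lower at 0 h by 0.63 ± 0.21 (adjusted p = 0.037). Of 8 tested for a different response, *Col10a1* and *Mmp13* were called, against 1.20% of all genes, while *Runx2* itself was not (adjusted p = 0.11).

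Of 22 cofactors and regulators of Sox9 and Runx2, 19 were tested, of which 12 were called over time in NT and 10 in IFT88siRNA, against 50.0% and 48.2% of all genes. *Foxc2* and *Msx2*, genes of developmental transcription factors, rose in NT at 2 h by 2.33 ± 0.14 (log2, SE; adjusted p = 7.2e-13) and 1.91 ± 0.12 (adjusted p = 2.3e-12). *Nkx3-2*, a gene that favours cartilage over hypertrophy, fell at 2 h by 1.86 ± 0.21 (adjusted p = 5.8e-08). Of the 19, 1 was called between the siRNA groups at 1 h, *Foxc2*, lower in IFT88siRNA by 1.14 ± 0.28 (adjusted p = 0.0105; 2.66% of all genes were called), and 1 at 24 h, *Ppargc1a*, a coactivator gene, higher by 1.02 ± 0.17 (adjusted p = 0.0017; 1.15% of all genes). *Nkx3-2* was called for a different response, with a change at 1 h that was lower in IFT88siRNA by 0.87 ± 0.22 (adjusted p = 0.022).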

How the data were processed

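RNA of 36 samples of cultured cells was sequenced as poly(A)-selected, paired-end libraries. The authors aligned reads with Hisat2 2.1.0 to GRCm38 (Ensembl 91) and deposited raw counts per gene from featureCounts (Subread 1.6.3), and TPM estimated with Salmon 0.9.1 and deposited per gene. From the counts, genes passing filterByExpr were tested with edgeR 4.0.16 in R 4.3.3 (TMM factors, quasi-likelihood F-test, Benjamini-Hochberg adjustment), within each time point for siRNA, within each siRNA group for time, and over 36 libraries for interactions. A call required a fold change over 1.5 besides an adjusted p-value under 0.05. The steps were also run on simulated counts with known changes larger than the fold threshold, and the outcome is not given here. DESeq2 1.42.0, limma 3.58.1 on log2(TPM + 1), other scalings, filters and left-out libraries were alternatives. Members and gene lists were chosen with earlier results of these data known. Named genes were the 7 members, *Ift88*, up to 4 called genes per list and comparison with the largest log2 change, and the 3 genes most like each member. Some cell type markers and genes that overlap a member were named as well. Replicates differed beyond sampling noise (chi-square per degree of freedom between 1.71 and 10.9). Gene models were from GENCODE (GRCm38).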

Additional observations from a re-analysis of the deposited data

Results flagged for a closer look

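The change from 0 h differed between IFT88siRNA and NT for 2 of the 6 tested genes by the interaction test of edgeR. For *Sox9* the log2 difference was −0.68 at 1 h and −0.85 at 2 h, and the latter was also the largest over the 5 time points tested together. For *Sox4* it was −0.63 at 1 h and −0.66 at 2 h, the latter again the largest over the 5 time points. Both genes started higher in IFT88siRNA at 0 h, and the 0 h libraries enter each of these differences. Groups of 3 libraries are too small for a test of single outlying libraries.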

How the results depend on the processing

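The counts of called genes over time stayed at 5 in both siRNA groups when any 1 library was left out. This does not cover the TPM, where the rise of *Sox5* at 4 h in NT and its fall at 24 h in IFT88siRNA were not called. Between the siRNA groups at 0 h, 0 of the members were called by limma on log2(TPM + 1), on log2(TPM + 0.1) and without a filter. Of all genes, 118 of 15025, 157 of 15025 and 69 of 32343 were called there, against 341 of 15274 by edgeR. Leaving out 1 library gave 1 to 3 members, where between 275 of 15673 and 368 of 15378 genes were called. Without the second IFT88siRNA library 1 was called (*Sox4*), and without the third NT library 3 (with *Sox6*). At 4 h leaving out 1 library gave 0 to 1, with *Sox5* called without the second IFT88siRNA library, where 69 of 15176 genes were called. With no fold threshold, 1, 1 and 2 were called at 1, 2 and 8 h, where 2808 of 14797, 407 of 14728 and 644 of 15165 of all genes were called. Over all time points 5 were called in that setting, for which the share of all genes was not counted, so that this count cannot be set against it. On the TPM in all 3 settings, 1 was called (*Sox9*) at 24 h, over all time points and for a different response. At 24 h 51 of 14636, 61 of 14636 and 25 of 32231 genes were called in these settings. Leaving out 1 replicate gave 2 to 3 over all time points and 1 to 2 for a different response, the 1 being *Sox9*, without replicate 2. Shares of all genes over all time points and for a different response were not counted in these settings. The cause of these shifts was not tested.

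The sign turned only on the TPM, in 5 of 85 differences with an unadjusted p-value under 0.05. For *Sox6* the siRNA difference at 0 h was −0.16 without a filter. Its difference at 8 h in IFT88siRNA was 0.066 on log2(TPM + 1), with or without a filter, and 0.17 on log2(TPM + 0.1). Its difference in response was 0.39 and 0.74 at 1 h and 0.27 and 0.51 at 2 h in these settings. For *Runx2* the siRNA difference at 4 h was 0.024 and 0.0245. Of the 41 differences with an unadjusted p-value of 0.05 or more, 22 turned sign in at least 1 setting. The 85 differences had 1736 values under the alternatives, of which 51 lost the call and 43 were newly called. Under upper-quartile scaling the median log2 change of all genes at 4 h in NT was −0.137, against −0.0159 with TMM factors.

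Samples of the same replicate number correlated above 0.1 in 6 of 18 pairs between the siRNA groups, with r between −0.21 and 0.39. In 7 of the 18 the own number had the highest r. Pairing by number was thus not shown, and with 3 replicates this check cannot exclude it. With a replicate block in the fit, the counts of members at 0, 1, 2, 4, 8 and 24 h were 2, 0, 0, 0, 0 and 2. Those over time were 5 and 5, that over all time points 3 and that for a different response 2. Each count was as without the block. Of all genes, 320 of 15274, 458 of 14797, 115 of 14728, 57 of 14801, 136 of 15165 and 140 of 15223 were called at the single times with the block. The shares for tests of time points together were not counted. Depth limits *Sox11*, with at most 8 reads per library, and *Sox5* and *Sox6*.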
